A study of Mus musculus with 48 samples.

Results

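The serine synthesis and folate one-carbon enzymes described here are 9 genes, namely Phgdh, Psat1, Psph, Shmt1, Shmt2, Mthfd1, Mthfd1l, Mthfd2 and Aldh1l2. They were taken by name from a table of 27281 genes, and were chosen with earlier results of these data known. RNA-Seq was run on 48 samples in 16 conditions of 3 samples each, from STHdh cells, conditionally immortalized striatal progenitor lines of C57BL/6 mice. Of these conditions, 14 were compounds given to STHdhQ111 cells, which are homozygous for an expanded CAG repeat knocked into the huntingtin gene, and 1 was the same cells with the vehicle DMSO. The last was STHdhQ7, the wild type line, in the same serum-free medium, so that all 48 samples were deprived of serum for 24 hours. Each genotype was 1 cell line, and genotype and line cannot be told apart. Diacylglycerol kinase inhibitor II (DKI below), meclizine, cyproheptadine, loxapine and selisistat were given at 10 µM, pizotifen at 5 µM, cysteamine at 250 µM, sodium butyrate at 1 mM and 4-deoxypyridoxine at 4 mM. Fingolimod phosphate was given at 250 nM, trichostatin A at 10 nM, nortriptyline at 1 nM, and nicotinamide and haloperidol at 0.5 nM. The study sought the modes of action of compounds that protect these cells, from RNA, metabolite, protein and histone mark data. It placed cyproheptadine, loxapine and pizotifen in a Group A and DKI and meclizine in a Group B from metabolite data. In its RNA data these compounds clustered together, and its protein data, without pizotifen, again separated the groups.

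Cells make serine from a glycolytic intermediate in a chain of reactions catalysed by PHGDH, PSAT1 and PSPH. Serine hydroxymethyltransferases then pass a carbon from serine to tetrahydrofolate, leaving glycine, and this happens in parallel in mitochondria and in the cytosol. The folate-bound carbon is oxidized to formate in mitochondria and is used in the cytosol for purines, thymidylate and methionine. The transcription factor ATF4, which is translated when cells sense amino acid shortage or mitochondrial dysfunction, is known to induce several of these genes.

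The values are the deposited normalized abundances on a log2 scale, and all differences below are differences of these log2 values, with the linear fold they correspond to. The deposited table gave no counts, so the sequencing depth behind a value was not known. Samples of 1 condition correlated at 0.9964 to 0.9994 across genes. Abundances of genes with a mean under 0 hardly varied (median SD 0.0051, against 0.144 for genes at 6 or more), so differences of low genes were compressed on this scale. All 9 genes lay well above that floor and entered the test with 13409 genes in all. A gene is called where the Benjamini-Hochberg adjusted p of limma over those genes was under 0.05. Replicates were collected in separate slots of day and time, but the labels do not say whether the cells came from separate stocks or passages, so the p-values measure the spread between these collections of 1 line, which may be technical. In bulk RNA, fewer expressing cells and less RNA per cell cannot be told apart.

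Of the markers of mature striatal neurons, Drd1 (-2.18), Adora2a (0.14) and Ppp1r1b (1.93) were low in the STHdhQ111 vehicle samples, whereas Foxp1 was at 9.99. Vim was at 15.42 and the collagen gene Col1a1 at 14.63. The neural progenitor genes Nes and Sox2 were at 4.96 and 4.81 in those samples and at 10.95 and 8.91 in STHdhQ7. Haloperidol replicate 2 stood apart in these markers. It had Nes at 7.14, between the 44 other STHdhQ111 libraries (4.46 to 6.34) and the STHdhQ7 libraries (9.93 to 11.66), and Sox2 and Acta2 lay between in the same way. Without that library in any fit, the number of the 9 genes called was the same in every comparison with the vehicle, in the 6 compound pairs and between Groups A and B. Over all genes tested, selisistat replicate 2 lay furthest from its own condition of the 48 libraries (mean Euclidean distance of log2 values 26.24, against 17.58 for haloperidol replicate 2). Without it, the count was the same in 19 of the 21 comparisons of other conditions, became 2 from 1 for meclizine against cyproheptadine and 4 from 3 for DKI against meclizine, and stayed at 0 for selisistat.

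Because these genes moved together, the 250 bases before the start of Shmt2, Mthfd2 and Shmt1 are printed beside those of Asns and Chac1, genes known as ATF4 targets. Sequences are from RefSeq on GRCm38.p6, on the strand of the gene, and 8 of the 9 genes had an entry, Aldh1l2 being the exception. For Mthfd2 and Shmt1 the printed window lies inside the annotated gene span given further below, so the RefSeq start differs from the annotated one. Capitals mark a match to TGATGNAA, the C/EBP-ATF element, on either strand.
Shmt2 (chr10:127522445-127522694, minus strand): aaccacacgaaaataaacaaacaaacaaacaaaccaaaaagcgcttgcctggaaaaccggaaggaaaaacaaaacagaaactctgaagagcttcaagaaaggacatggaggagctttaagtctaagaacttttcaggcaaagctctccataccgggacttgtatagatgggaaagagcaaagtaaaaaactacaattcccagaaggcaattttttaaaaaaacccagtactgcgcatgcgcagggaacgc
Mthfd2 (chr6:83317605-83317854, minus strand): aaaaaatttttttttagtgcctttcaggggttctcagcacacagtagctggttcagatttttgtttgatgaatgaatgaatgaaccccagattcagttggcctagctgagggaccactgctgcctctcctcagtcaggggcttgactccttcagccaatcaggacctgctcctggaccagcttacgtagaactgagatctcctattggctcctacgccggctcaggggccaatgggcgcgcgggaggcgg
Shmt1 (chr11:60811266-60811515, minus strand): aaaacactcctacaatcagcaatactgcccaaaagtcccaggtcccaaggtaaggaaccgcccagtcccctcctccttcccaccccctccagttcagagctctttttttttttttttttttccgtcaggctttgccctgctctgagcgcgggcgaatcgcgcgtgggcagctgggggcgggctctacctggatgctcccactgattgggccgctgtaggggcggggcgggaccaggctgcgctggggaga
Asns (chr6:7693210-7693459, minus strand): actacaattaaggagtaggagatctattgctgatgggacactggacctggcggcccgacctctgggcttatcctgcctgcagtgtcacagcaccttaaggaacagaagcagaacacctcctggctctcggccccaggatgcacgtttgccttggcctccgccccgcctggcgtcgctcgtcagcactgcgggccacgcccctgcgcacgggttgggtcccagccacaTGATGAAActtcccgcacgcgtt
Chac1 (chr2:119350992-119351241, plus strand): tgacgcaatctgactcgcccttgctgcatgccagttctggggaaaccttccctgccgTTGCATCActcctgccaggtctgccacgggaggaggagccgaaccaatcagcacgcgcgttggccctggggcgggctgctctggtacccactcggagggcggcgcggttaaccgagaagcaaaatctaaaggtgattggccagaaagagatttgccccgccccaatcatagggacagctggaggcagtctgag
The element was searched in 300 bases, 250 before and 50 after the start, in which it stood in 0 of the 8 genes, against 4.51% of all 27025 genes with a promoter. Counted by promoter, it stood in 3.97% of 32851. It stood in 4 of the 8 genes of an ATF4 list (Atf3, Trib3, Asns and Chac1). The match in Asns, TGATGAAA, began 23 bases before the start, and the match in Chac1, TTGCATCA as printed, lay on the other strand with its first base 193 before the start. The E-box CACGTG was in 0 of the 8 genes and in 8.09% of all genes (7.15% of promoters). The absence of these letters from the window says nothing of sites elsewhere, such as in introns.

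Against the vehicle control, 5 of the 14 compounds raised most of the 9 genes. With DKI, 9 of 9 genes were called higher, where 20.4% of all genes tested were. With meclizine 9 of 9 were higher (13.1% of all genes), with cyproheptadine 9 of 9 (17.5%), with loxapine 9 of 9 (10.1%) and with pizotifen 7 of 9 (8.86%). In STHdhQ7 cells, 8 of 9 were higher than in the same vehicle samples (29.2% of all genes). Of the 126 pairs of a gene and a compound, 45 were higher, 4 were lower and 77 were not called, and 6 compounds had none called. All these comparisons share the 3 vehicle samples.

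**Figure D1:**
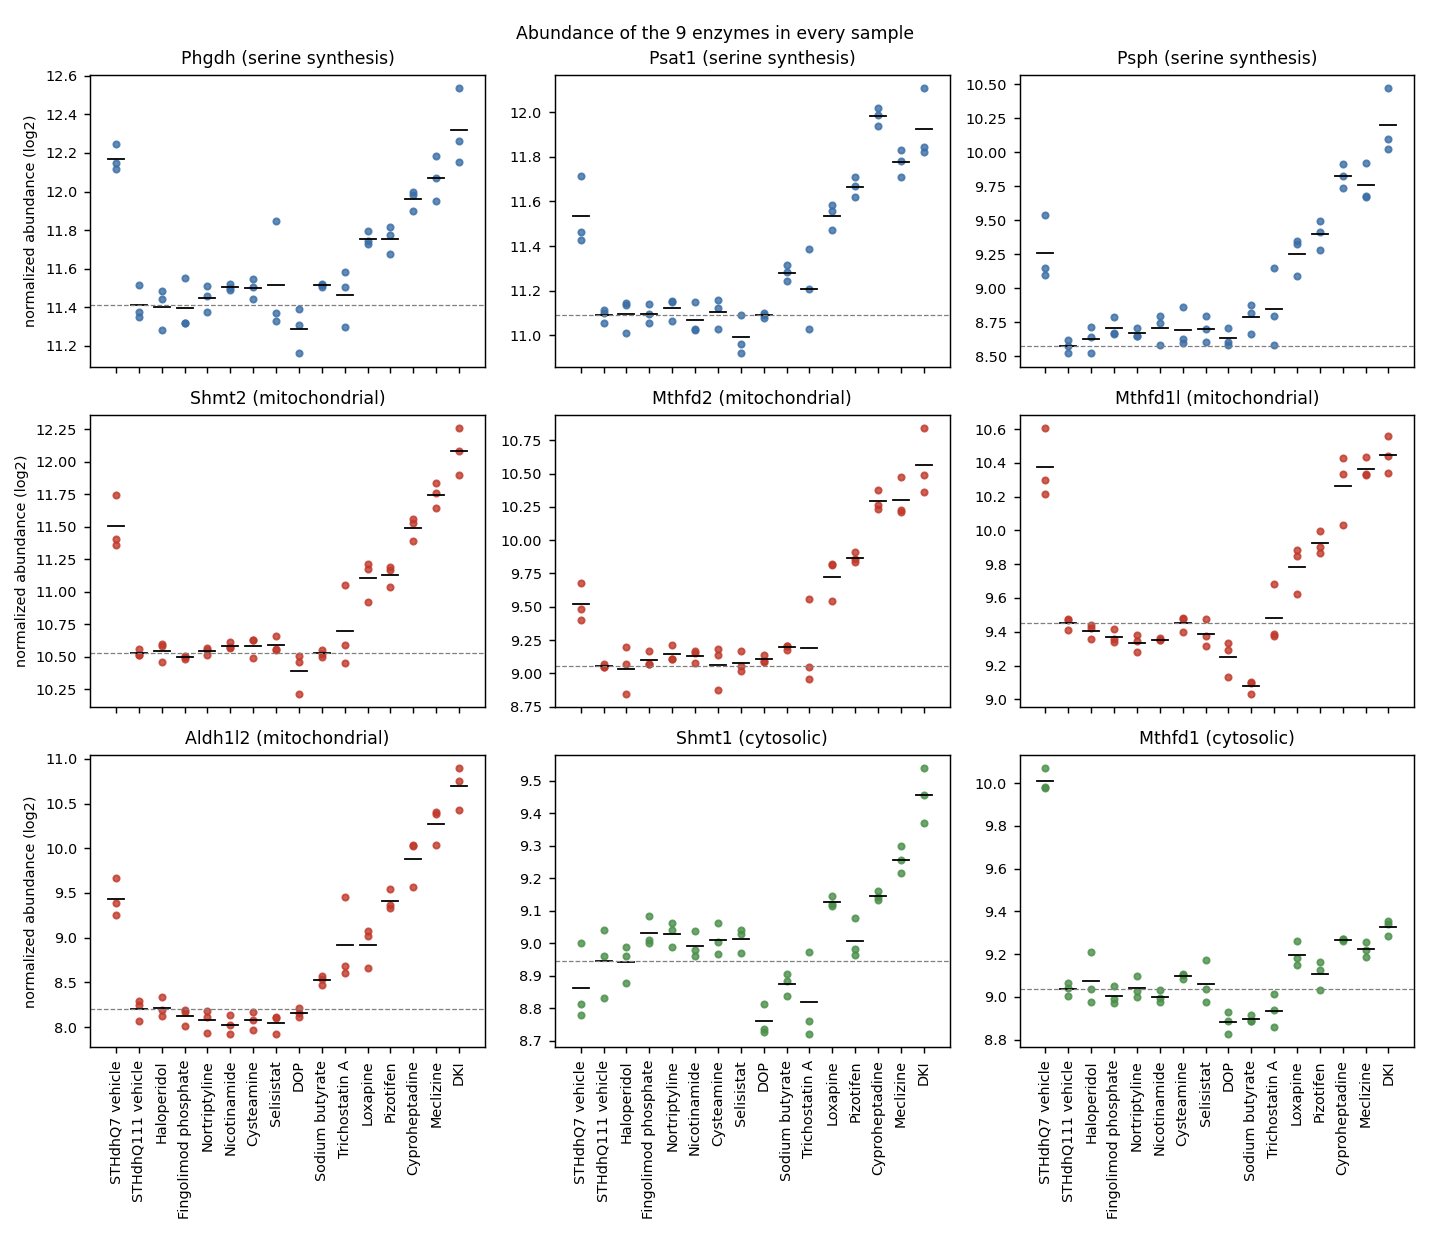
Normalized abundance (log2) of each of the 9 genes in all 48 samples, 1 panel per gene. Points are samples, black bars are condition means and the dashed line is the STHdhQ111 vehicle mean; the points for DKI, meclizine and cyproheptadine lie above all vehicle points in every panel, whereas Mthfd1 is highest in STHdhQ7.

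Phgdh encodes the first enzyme of serine synthesis. Its abundance was 11.35, 11.37 and 11.52 in the vehicle samples, 12.54, 12.15 and 12.26 with DKI, and 12.19, 11.95 and 12.07 with meclizine. The DKI and meclizine samples were above all vehicle samples, and the differences were 0.90 with DKI (1.87-fold, SE 0.095, limma adjusted p = 7.14e-10) and 0.66 with meclizine (1.58-fold, limma adjusted p = 1.57e-06). Cyproheptadine gave 11.98, 11.90 and 12.00, a difference of 0.55 (1.46-fold). Loxapine and pizotifen each gave 0.34 (1.27-fold). The pizotifen call was lost without vehicle replicate 1 (0.31, limma adjusted p = 0.055).

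Psat1, the aminotransferase of the second step, was at 11.10, 11.06 and 11.11 in the vehicle and at 11.99, 11.94 and 12.02 with cyproheptadine. It was the one gene of the 9 whose condition mean was highest with cyproheptadine, with a difference of 0.89 (1.85-fold, limma adjusted p = 2.18e-11). DKI gave 12.11, 11.82 and 11.84 (0.83, 1.78-fold), meclizine 0.69 (1.61-fold), pizotifen 0.58 (1.49-fold) and loxapine 0.45 (1.36-fold). No sample of these compounds overlapped the vehicle samples.

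Psph, the phosphatase that releases serine, moved most of the 3 serine synthesis genes with each of these compounds. Its abundance was 8.52, 8.57 and 8.62 in the vehicle, 10.47, 10.03 and 10.10 with DKI and 9.92, 9.68 and 9.67 with meclizine. The lowest of these DKI and meclizine samples was over 1 log2 unit above the highest vehicle sample. The differences were 1.63 with DKI (3.09-fold, SE 0.114, limma adjusted p = 3.29e-14), 1.25 with cyproheptadine (2.38-fold), 1.19 with meclizine (2.28-fold), 0.82 with pizotifen (1.77-fold) and 0.68 with loxapine (1.61-fold).

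Among the 4 mitochondrial enzymes, Aldh1l2 had the largest differences of all 9 genes. It encodes the mitochondrial 10-formyltetrahydrofolate dehydrogenase, which makes NADPH while releasing the carbon as carbon dioxide. Its abundance was 8.29, 8.24 and 8.07 in the vehicle, 10.89, 10.43 and 10.76 with DKI, and 10.38, 10.03 and 10.40 with meclizine. With cyproheptadine it was 9.57, 10.03 and 10.03, with pizotifen 9.37, 9.33 and 9.54, and with loxapine 8.66, 9.02 and 9.07. Every one of these samples lay above every vehicle sample. The differences were 2.49 with DKI (5.61-fold, SE 0.148, limma adjusted p = 1.94e-15), 2.07 with meclizine (4.20-fold, SE 0.146, limma adjusted p = 5.36e-13), 1.67 with cyproheptadine (3.19-fold), 1.21 with pizotifen (2.31-fold) and 0.72 with loxapine (1.64-fold).

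Shmt2, the mitochondrial serine hydroxymethyltransferase, was at 10.51, 10.52 and 10.56 in the vehicle, 12.26, 11.90 and 12.08 with DKI, and 11.84, 11.64 and 11.76 with meclizine. All treated samples of the 5 compounds were above the vehicle samples. The difference was 1.55 with DKI (2.92-fold, SE 0.102, limma adjusted p = 1.63e-14), 1.22 with meclizine (2.32-fold), 0.96 with cyproheptadine (1.95-fold), 0.60 with pizotifen (1.52-fold) and 0.57 with loxapine (1.49-fold).

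Mthfd2, the mitochondrial methylenetetrahydrofolate dehydrogenase and cyclohydrolase, was at 9.05, 9.05 and 9.07 in the vehicle. It was at 10.84, 10.36 and 10.49 with DKI, 10.47, 10.22 and 10.21 with meclizine, and 10.24, 10.27 and 10.38 with cyproheptadine. The meclizine and cyproheptadine samples overlapped each other and none overlapped the vehicle. The differences were 1.51 with DKI (2.85-fold, limma adjusted p = 1.21e-13), 1.25 with meclizine (2.37-fold), 1.24 with cyproheptadine (2.36-fold), 0.81 with pizotifen (1.76-fold) and 0.67 with loxapine (1.59-fold).

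Mthfd1l, the mitochondrial formyltetrahydrofolate synthetase that releases formate, was at 9.47, 9.41 and 9.47 in the vehicle and at 10.56, 10.34 and 10.44 with DKI. Of the 4 mitochondrial genes it had the smallest difference with each of the 5 compounds. The differences were 0.99 with DKI (1.99-fold, SE 0.086, limma adjusted p = 6.44e-12), 0.91 with meclizine, 0.81 with cyproheptadine, 0.47 with pizotifen and 0.33 with loxapine (1.26-fold, limma adjusted p = 0.00406).

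The cytosolic genes moved less. Shmt1, the cytosolic serine hydroxymethyltransferase, was at 8.83, 9.04 and 8.96 in the vehicle, 9.54, 9.37 and 9.46 with DKI and 9.30, 9.22 and 9.26 with meclizine. These DKI and meclizine samples lay above the vehicle samples, with differences of 0.51 (1.42-fold, SE 0.058, limma adjusted p = 4.27e-09) and 0.31 (1.24-fold, limma adjusted p = 7.84e-05). Cyproheptadine gave 0.20 (limma adjusted p = 0.00642) and loxapine 0.18 (limma adjusted p = 0.02). The cyproheptadine call was lost without vehicle replicate 1 (0.15, limma adjusted p = 0.0763). The loxapine call was lost without that library (limma adjusted p = 0.204), without loxapine replicate 1 (0.0664) or replicate 3 (0.0524), and against nicotinamide and nortriptyline, which were collected on the same days and times as loxapine (0.12, limma adjusted p = 0.0911). With pizotifen the samples of Shmt1 (9.08, 8.96 and 8.98) overlapped the vehicle, and the difference was 0.06 (95% interval -0.05 to 0.18).

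Mthfd1 encodes the cytosolic enzyme that carries synthetase, cyclohydrolase and dehydrogenase activities in 1 protein. It was at 9.04, 9.01 and 9.06 in the vehicle, 9.34, 9.28 and 9.35 with DKI, 9.19, 9.22 and 9.26 with meclizine, 9.26, 9.27 and 9.27 with cyproheptadine, and 9.15, 9.18 and 9.26 with loxapine. These samples were above the vehicle samples by small steps. The differences were 0.29 with DKI (1.22-fold, SE 0.052, limma adjusted p = 1.78e-05), 0.23 with cyproheptadine (1.17-fold, limma adjusted p = 5.82e-04), 0.18 with meclizine (1.14-fold, limma adjusted p = 0.00615) and 0.16 with loxapine (1.12-fold, limma adjusted p = 0.0206). The loxapine call was lost without vehicle replicate 1 (limma adjusted p = 0.0539), vehicle replicate 2 (0.0923) or loxapine replicate 3 (0.139). With pizotifen the difference was 0.07 (95% interval -0.03 to 0.17) and was not called.

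**Figure D2:**
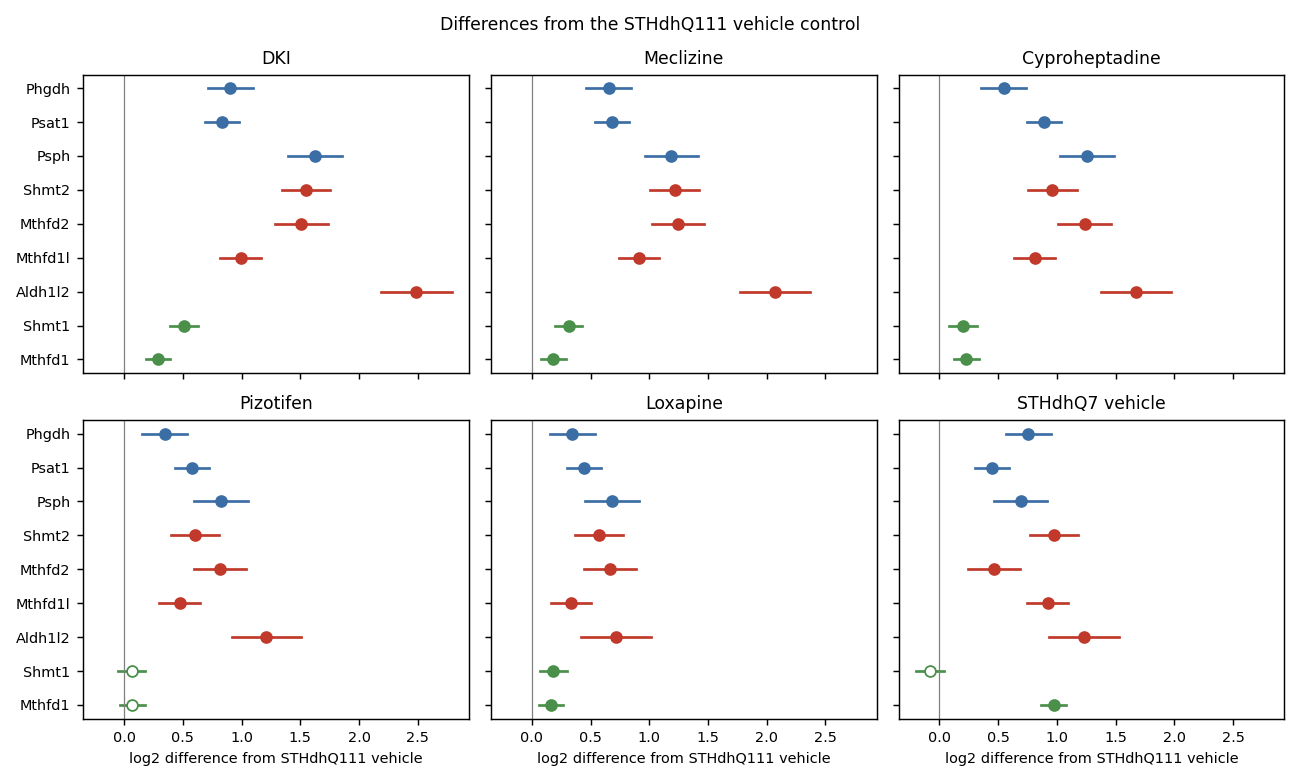
Log2 difference from the STHdhQ111 vehicle control of each gene for DKI, meclizine, cyproheptadine, pizotifen, loxapine and STHdhQ7, with 95% intervals. Filled symbols passed the test and open symbols did not; Aldh1l2 reaches 2.49 with DKI, and the open symbols are Shmt1 and Mthfd1 with pizotifen and Shmt1 in STHdhQ7.

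Most compounds were collected on the same 3 days as the vehicle samples but at other times of those days, so meclizine, pizotifen and loxapine were also set against nanomolar compounds collected with them. Against haloperidol and fingolimod phosphate, 9 of 9 genes stayed called with meclizine and 7 with pizotifen. Against nicotinamide and nortriptyline, 8 of 9 stayed called with loxapine, Shmt1 being the exception. The share of all genes called against these references was not counted, here or below. DKI and cyproheptadine had no such reference and shared a collection day and time with the vehicle in replicates 2 and 3.

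To set the mitochondrial genes against the cytosolic ones, each gene was expressed relative to its vehicle mean and the mean of Shmt1 and Mthfd1 was subtracted from that of Shmt2, Mthfd2, Mthfd1l and Aldh1l2 in each sample. This difference was 1.24 ± 0.13 (SD, n = 3) with DKI, 1.11 ± 0.10 with meclizine, 0.96 ± 0.15 with cyproheptadine, 0.71 ± 0.08 with pizotifen and 0.40 ± 0.16 with loxapine, and the vehicle samples lay between -0.04 and 0.07. Every sample of the 5 compounds was above the vehicle range, the lowest being a loxapine sample at 0.22. The samples of trichostatin A (0.37 ± 0.22) and sodium butyrate (0.13 ± 0.01) were also all above that range. The mitochondrial mean itself was 1.64 with DKI, 1.36 with meclizine, 1.17 with cyproheptadine, 0.77 with pizotifen and 0.57 with loxapine. The cytosolic mean was 0.40, 0.25, 0.21, 0.07 and 0.17 for the same compounds. With sodium butyrate the mitochondrial mean was only 0.02 and the cytosolic mean was -0.11, so its score came mostly from the cytosolic genes. With trichostatin A the mitochondrial mean was 0.26 ± 0.32 (SD, n = 3) and the cytosolic mean -0.11. Shmt2 minus Shmt1, the pair that catalyses 1 reaction in each compartment, gave 1.04 with DKI, 0.90 with meclizine, 0.76 with cyproheptadine, 0.54 with pizotifen and 0.39 with loxapine. The serine synthesis mean lay between the compartments, at 1.12 with DKI, 0.84 with meclizine, 0.90 with cyproheptadine, 0.58 with pizotifen and 0.49 with loxapine. These scores are descriptions with no test.

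**Figure D3:**
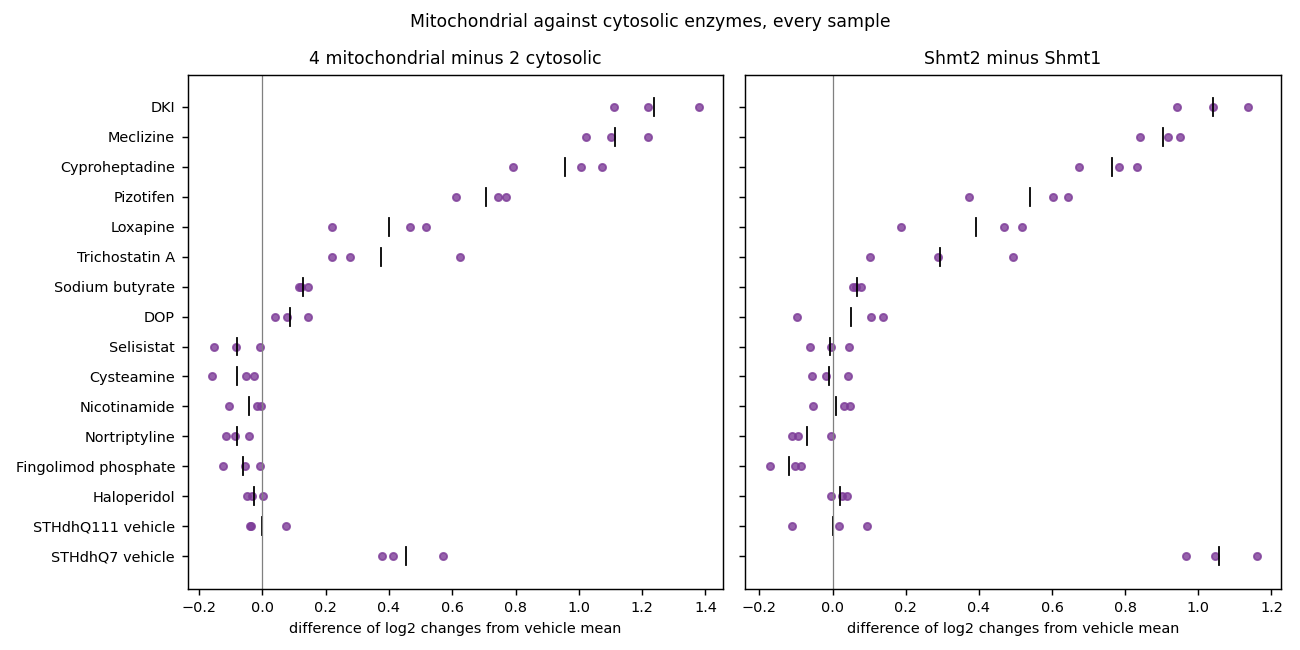
Change relative to the vehicle mean (log2) of the 4 mitochondrial genes minus that of the 2 cytosolic genes (left) and of Shmt2 minus that of Shmt1 (right). Points are samples and bars are condition means; DKI, meclizine and cyproheptadine lie at 0.79 or more in the left panel, against at most 0.07 for the vehicle.

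The wild type line showed another arrangement. In STHdhQ7, Mthfd1 was at 10.07, 9.98 and 9.98, above every sample of every other condition, and its difference from the STHdhQ111 vehicle was 0.97 (1.96-fold, SE 0.051, limma adjusted p = 5.68e-19). Shmt1 was at 9.0003, 8.81 and 8.78, overlapping the vehicle samples, with a difference of -0.08 that was not called. Without STHdhQ7 replicate 1 all 9 genes were called, Shmt1 then being lower. The cytosolic mean of 0.45 in STHdhQ7 thus came from Mthfd1. Aldh1l2 was 1.23 higher (2.35-fold, limma adjusted p = 3.11e-09), Shmt2 0.98 higher (1.97-fold) and Mthfd1l 0.92 higher (1.89-fold). Mthfd2 was 0.46 higher (1.38-fold, limma adjusted p = 4.22e-04), the smallest of the 4 mitochondrial genes. Phgdh was 0.76 higher (1.69-fold), Psph 0.69 (1.61-fold) and Psat1 0.44 (1.36-fold). The mitochondrial minus cytosolic score was 0.45 ± 0.10 (SD, n = 3) and Shmt2 minus Shmt1 was 1.06. The lines also differed in marker genes. The 6 tested neural progenitor genes were on average 1.83 to 2.32 above the vehicle mean in the STHdhQ7 samples. Of these 6, 4 were called higher, and of the 6 mesenchymal genes 1 was called higher and 2 lower. Of all genes tested, 29.2% were called higher and 26.6% lower. The part of these markers in the differences was not tested.

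Mesenchymal markers also moved with some compounds. Relative to the vehicle mean, the mean of the 6 genes was -0.63 to -0.47 in the DKI samples (5 of 6 called lower), -0.60 to -0.43 with cyproheptadine (4 of 6), -0.45 to -0.29 with meclizine (4 of 6), -0.31 to -0.23 with pizotifen (2 of 6) and -0.19 to -0.08 with loxapine (0 of 6). Of all genes tested, 21.9%, 18.2%, 13.6%, 9.07% and 11.8% were called lower in that order of compounds. The part of these markers in the differences of the 9 genes was not tested.

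DKI, meclizine, cyproheptadine and loxapine were given at the same dose for the same 24 hours, which allowed 6 direct pairs that do not use the vehicle. Of these pairs, only DKI and cyproheptadine had the same collection days and times throughout. Both had replicates 1 and 3 on day 3, replicate 2 on day 2 and no sample on day 1, unlike meclizine and loxapine. Cyproheptadine and loxapine are both tricyclic, with a piperidine in cyproheptadine and a piperazine in loxapine. With loxapine 6 of 9 genes were lower than with cyproheptadine (4.91% of all genes were lower). The differences were -0.96 for Aldh1l2 (limma adjusted p = 5.32e-05), -0.57 for Psph, -0.57 for Mthfd2, -0.48 for Mthfd1l, -0.44 for Psat1 and -0.39 for Shmt2. The Shmt2 call was lost without loxapine replicate 1 (limma adjusted p = 0.0949) or cyproheptadine replicate 3 (0.0525). Phgdh was not called, with a difference of -0.20 (95% interval -0.39 to -0.01). Shmt1 differed by -0.02 (95% interval -0.14 to 0.10) and Mthfd1 by -0.07 (95% interval -0.17 to 0.04), neither called. After adjustment over all 6 pairs the same 6 genes were called.

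DKI gave higher levels than loxapine in 9 of 9 genes (18.6% of all genes), from 0.13 for Mthfd1 to 1.77 for Aldh1l2. The Mthfd1 call was lost after adjustment over the 6 pairs (limma adjusted p = 0.0728), and also without loxapine replicate 1 or 2 or DKI replicate 1 or 3. Meclizine gave higher levels than loxapine in 7 of 9 genes (12.0%), from 0.24 for Psat1 to 1.35 for Aldh1l2 (limma adjusted p = 1.28e-08), and not in Shmt1 (0.13, limma adjusted p = 0.101) or Mthfd1 (0.02). The Phgdh call was lost without meclizine replicate 1 (limma adjusted p = 0.107), and the Psat1 call without meclizine replicate 1 (0.0769) or loxapine replicate 1 (0.0681).

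DKI gave higher levels than cyproheptadine in 5 of 9 genes (14.7%), namely Aldh1l2 by 0.82 (limma adjusted p = 3.74e-05), Shmt2 by 0.59, Psph by 0.38, Phgdh by 0.36 and Shmt1 by 0.31. Psat1 went the other way without being called (-0.06, 95% interval -0.20 to 0.09). Without DKI replicate 1 there were 3 calls, Phgdh (limma adjusted p = 0.0668) and Psph (0.149) being lost, and Psph was also lost without cyproheptadine replicate 1 (0.0522). Without DKI replicate 2 there were 6.

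DKI and meclizine differed in 3 genes (4.30% of all genes higher with DKI), with Psph 0.44 higher, Shmt2 0.33 higher and Shmt1 0.20 higher (limma adjusted p = 0.0274). This count rested on single libraries. It was 0 without DKI replicate 1, meclizine replicate 2 or meclizine replicate 3, 1 without DKI replicate 3 and 6 without DKI replicate 2. Meclizine and cyproheptadine differed in 1 gene (9.83% of all genes lower with meclizine), Psat1, which was -0.20 lower with meclizine (limma adjusted p = 0.044) and lost the call without any 1 of the 6 libraries other than meclizine replicate 1. Mthfd2 differed between them by 0.01 (95% interval -0.21 to 0.23), and Aldh1l2 by 0.40 (limma adjusted p = 0.0537, and 0.049 over the 6 pairs).

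**Figure D4:**
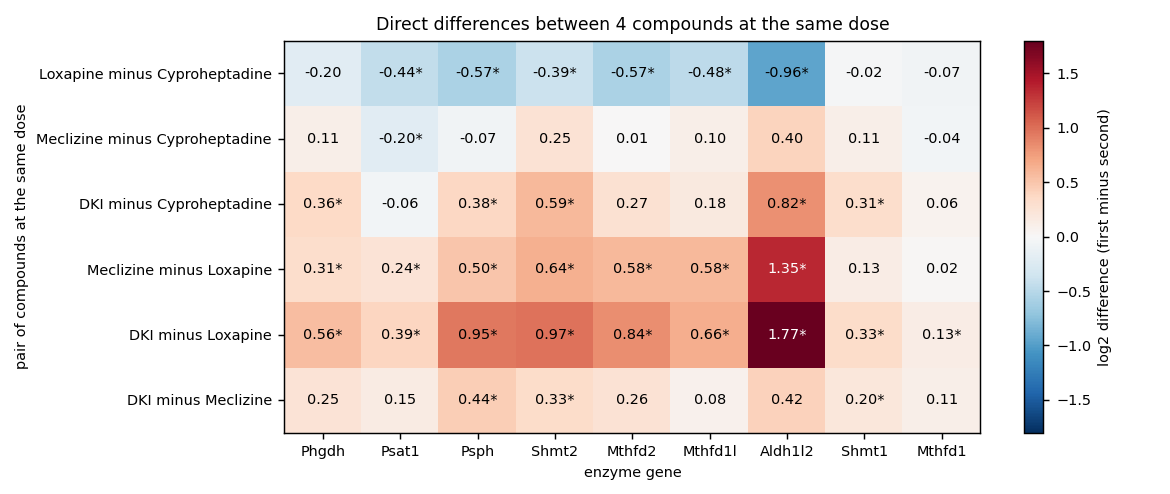
Log2 difference of each gene in the 6 direct pairs of compounds given at 10 µM, as a heat map in which asterisks mark calls. The DKI against loxapine row has asterisks in all 9 columns, the meclizine against cyproheptadine row has 1, and the strongest colours stand in the Aldh1l2 column.

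Pizotifen was given at a lower dose and was not compared with single compounds. As means over the 2 sets, 9 of 9 genes were lower in Group A than in Group B (21.4% of all genes were), where pizotifen's dose and its group cannot be told apart. These calls measure the spread between libraries and not between compounds, so they hold for the means of these compounds and not for a group beyond them. The differences were -1.08 for Aldh1l2, -0.67 for Shmt2, -0.49 for Psph, -0.47 for Mthfd2, -0.42 for Mthfd1l, -0.37 for Phgdh, -0.26 for Shmt1, -0.12 for Psat1 and -0.08 for Mthfd1. The Psat1 call was lost without DKI replicate 1, meclizine replicate 1 or 2, cyproheptadine replicate 2, loxapine replicate 1 or pizotifen replicate 1. The Mthfd1 call was lost without DKI replicate 1 or 3, meclizine replicate 2 or 3, any 1 cyproheptadine replicate, loxapine replicate 1 or 2, or pizotifen replicate 2. With pizotifen left out, so that all doses were 10 µM, 7 of 9 genes were lower (19.5% of all genes), with Aldh1l2 at -1.09 and Shmt2 at -0.61, and Psat1 (-0.09, limma adjusted p = 0.155) and Mthfd1 (-0.04, limma adjusted p = 0.391) were not called. The samples of the full groups did not overlap in Aldh1l2, Shmt2 and Shmt1, and overlapped in the other 6 genes.

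Sodium butyrate and trichostatin A inhibit histone deacetylases, and their doses differed, so they are described side by side. With sodium butyrate Mthfd1l was at 9.03, 9.10 and 9.10, below all vehicle samples, and fell by 0.37 on the log2 scale (SE 0.085, limma adjusted p = 6.23e-04). Mthfd1 fell by 0.14 (limma adjusted p = 0.028), and 17.8% of all genes were called lower. Psat1 was the 1 gene higher, by 0.19 (95% interval 0.05 to 0.34, limma adjusted p = 0.0319), where 19.6% of all genes were, so that 3 of 9 is close to the share of all genes called. The Psat1 call was lost without vehicle replicate 1 or 2 or butyrate replicate 2 or 3, and the Mthfd1 call without vehicle replicate 1 or 3 or any 1 butyrate replicate. Against nicotinamide and nortriptyline, collected with it, 5 genes were called, adding Aldh1l2 (0.48 higher, limma adjusted p = 0.00358) and Shmt1 (-0.14, limma adjusted p = 0.0357). The share of all genes called against that reference was not counted.

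With trichostatin A, Aldh1l2 was at 8.69, 9.45 and 8.61, above the vehicle samples, and 0.71 higher (1.64-fold, SE 0.146, limma adjusted p = 8.62e-04), where 6.41% of all genes were called higher. Replicate 2 was the highest of the 3 samples in 9 of the 9 genes, and without it the difference was 0.43 (limma adjusted p = 0.0294). The count of genes called was 2 without replicate 2 and 3 without replicate 3. Against haloperidol and fingolimod phosphate it was 2, Shmt1 being lower (-0.17, limma adjusted p = 0.0194).

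4-Deoxypyridoxine is an antagonist of vitamin B6, the cofactor of PSAT1 and of both serine hydroxymethyltransferases. With it, Shmt1 was at 8.81, 8.73 and 8.74, below all vehicle samples, and fell by 0.18 (limma adjusted p = 0.02), and Mthfd1 fell by 0.16 (limma adjusted p = 0.0266), where 11.2% of all genes were lower. The Shmt1 call was lost without vehicle replicate 2 or 3 or compound replicate 2 or 3, and the Mthfd1 call without vehicle replicate 1 or 3 or compound replicate 2. Against nicotinamide and nortriptyline the differences were -0.25 for Shmt1 (limma adjusted p = 0.00111) and -0.14 for Mthfd1 (limma adjusted p = 0.0361). Psat1, at 11.08, 11.09 and 11.10, overlapped the vehicle. Shmt2 was at 10.51, 10.22 and 10.46, all below the vehicle samples, and was not called (-0.14, 95% interval -0.34 to 0.07, limma adjusted p = 0.377). Mthfd1l had the largest fall of the 9 genes (-0.20) and was not called. Its samples, at 9.13 to 9.33, were all below the vehicle samples (9.41 to 9.47). Against nicotinamide and nortriptyline the Mthfd1l difference was -0.09, also not called.

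Selisistat, nicotinamide, nortriptyline, fingolimod phosphate, haloperidol and cysteamine had 0 of 9 genes called each by limma, and 0 of the 54 differences had an unadjusted p under 0.05. Of all genes, 0.515%, 10.4%, 3.83%, 0.0597%, 0% and 7.83% were called in either direction with these compounds. The 54 differences lay between -0.18 and 0.14, and their 95% intervals between -0.47 and 0.36. Selisistat replicate 2 had Phgdh at 11.85, above the other selisistat samples (11.33 and 11.37).

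Across the 16 conditions, the order of the means differed between genes, and a step is called clear here where the samples of neighbours did not overlap. Aldh1l2 ran from DKI (10.69 ± 0.24, SD, n = 3) to meclizine (10.27 ± 0.21), cyproheptadine (9.88 ± 0.26), STHdhQ7 (9.43 ± 0.21), pizotifen (9.41 ± 0.11), loxapine (8.92 ± 0.22) and trichostatin A (8.91 ± 0.47). The steps from DKI to meclizine, from meclizine to cyproheptadine and from pizotifen to loxapine were clear, while cyproheptadine, STHdhQ7 and pizotifen were not clear of their neighbours in turn. A clear step could be narrow, the lowest meclizine sample being at 10.034 and the highest cyproheptadine sample at 10.032. In the direct pairs, Aldh1l2 was not called for DKI against meclizine or for meclizine against cyproheptadine. Shmt2 ran from DKI (12.08 ± 0.18) by a clear step to meclizine (11.75 ± 0.10), STHdhQ7 (11.51 ± 0.21) and cyproheptadine (11.49 ± 0.09), which overlapped in turn. Shmt1 was highest with DKI (9.45 ± 0.08), then meclizine (9.26 ± 0.04) and cyproheptadine (9.14 ± 0.01), with clear steps between them. The Shmt1 step from meclizine to cyproheptadine was not called in the direct pair. For Mthfd1, STHdhQ7 (10.01 ± 0.05) was followed by a clear step to DKI (9.33 ± 0.04), and 4-deoxypyridoxine was lowest (8.88 ± 0.05).

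In some conditions 1 library stood highest or lowest in most of the genes. STHdhQ7 replicate 1 was the highest of its 3 samples in 9 of 9 genes, DKI replicate 1 in 8 of 9, and DKI replicate 2 was the lowest in 9 of 9. The mean of the ATF4 list (Atf4, Atf5, Atf3, Ddit3, Trib3, Asns, Chac1 and Ppp1r15a), relative to its vehicle mean, was read in the same samples. It was 0.16, 0.77 and -0.04 in the trichostatin A samples, 0.91, 0.62 and 0.56 in STHdhQ7, and 2.10, 1.67 and 1.89 with DKI. Thus trichostatin A replicate 2, STHdhQ7 replicate 1 and DKI replicate 1 were also highest in that list. With cysteamine, where it was at -0.03, 0.14 and 0.13, replicate 1 was lowest in the list and in 9 of 9 genes, and with haloperidol, at 0.05, 0.07 and -0.01, replicate 3 was lowest in the list and in 8. With cyproheptadine, at 1.31, 1.42 and 1.49, replicate 1 was lowest and replicate 3 highest in the list and in 7 genes each. Sodium butyrate went the other way, with replicate 1 highest in the list (0.39, 0.28 and 0.31) and lowest in 7 genes. With loxapine, where the list was at 0.75, 0.87 and 0.83, replicate 1 was lowest in the list and in Psat1, Psph, Shmt2, Mthfd2, Mthfd1l, Aldh1l2 and Mthfd1. Meclizine replicate 1 was highest in 7 genes and 4-deoxypyridoxine replicate 2 lowest in 7, and the list values of those conditions are not given here.

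The ATF4 list was higher in 8 of its 8 genes with each of the 5 compounds, with median differences of 1.89 with DKI, 1.43 with meclizine, 1.33 with cyproheptadine, 0.95 with pizotifen and 0.79 with loxapine, whereas the median of all genes tested was within 0.02 of 0. Of all genes tested, 20.4%, 13.1%, 17.5%, 8.86% and 10.1% were called higher in that order of compounds. Atf4 itself was 1.32, 1.20, 1.30, 0.94 and 0.83 higher in the same order. Trib3, a pseudokinase gene induced under stress, was 3.00 higher with DKI and 1.25 higher with loxapine, and Chac1, which encodes a glutathione-degrading enzyme, was 2.12 and 1.27 higher. Ddit3, the pro-apoptotic factor CHOP, was 1.90 higher with DKI and 0.55 with loxapine. In STHdhQ7 6 of the 8 were higher (median 0.54, where 29.2% of all genes were higher), Ddit3 being at 0.02 without a call. The secreted stress factor gene Gdf15 was 1.63 higher with DKI and fell by 0.37 in STHdhQ7. In Group A against Group B, Atf4 differed by -0.24, Ddit3 by -0.98 and Trib3 by -1.21, all called.

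Of the other folate enzymes and carriers, 13 were tested. With DKI 3 of 13 were higher and 2 lower (median 0.06, against 20.4% of all genes higher and 21.9% lower), with meclizine 2 were higher (13.1%), and with cyproheptadine 4 were higher (17.5%) and 1 lower (18.2%). With loxapine 1 was higher (10.1%) and 1 lower (11.8%), and with pizotifen 1 was higher (8.86%). The difference between this list and the 9 genes was not tested. Slc19a1, the reduced folate carrier, was 0.84 higher with DKI, 0.47 with meclizine and 0.31 with cyproheptadine, and was not called with pizotifen (0.13) or loxapine (0.03). In STHdhQ7, 4 of the 13 were higher and 5 lower (29.2% and 26.6% of all genes).

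The same shares of all genes apply to the lists of genes that use serine and one-carbon units. Cth, the cystathionine gamma-lyase gene of transsulfuration, was 2.30 higher with DKI, 1.65 with meclizine, 1.21 with cyproheptadine and 0.57 with pizotifen, and was at 0.27 without a call with loxapine. In its list of 9 tested methionine cycle and transsulfuration genes, 4 were higher and 1 lower with DKI (20.4% and 21.9% of all genes), and 0 higher and 1 lower with loxapine (10.1% and 11.8%). Mtrr, methionine synthase reductase, was 0.73 higher with DKI. Of the 6 de novo purine synthesis genes, 4 were higher with DKI (20.4% of all genes), 3 with meclizine (13.1%), 4 with cyproheptadine (17.5%), where 1 was lower, and 0 with loxapine or pizotifen. Atic, the gene of the last 2 steps of purine synthesis, was 0.42 higher with DKI and Pfas 0.29. Of the 3 glycine cleavage genes tested, Dld was 0.42 higher with DKI, the 1 call among them. Of the 4 genes of enzymes that use serine or glycine, Sptlc1, a subunit of the enzyme that starts sphingolipid synthesis, was the 1 called with DKI (0.35 higher).

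By likeness over the 16 condition means (Pearson r, among 10725 genes with the 9 members left out, given as a description of points that share the same samples), the nearest genes to Psph were Gars and Slc7a11 (r = 0.991 each) and Sars (0.989). Those nearest to Shmt2 were Lars (0.992), Ciart (0.991) and Yars (0.988), and those nearest to Mthfd2 were Gars (0.990), Nars (0.986) and Slc7a11 (0.985). Gars, Sars, Lars, Yars and Nars encode aminoacyl-tRNA synthetases, and Slc7a11 the cystine transporter subunit. Aldh1l2 was nearest to Slc7a11 (0.989), Asns (0.987) and Trib3 (0.987), and Psat1 to Chac1 (0.987), Asns (0.978) and Siah2 (0.971). Phgdh was nearest to Slc7a5 (0.980), Nop56 (0.974) and Cln8 (0.973), and Mthfd1l to Nfe2l1 (0.972), Pes1 (0.972) and Xpot (0.971). The cytosolic genes had other neighbours, Mthfd1 being nearest to Slc20a2 (0.975), Cp (0.971) and Tbl3 (0.968) and Shmt1 to Ccdc137 (0.937), the lowest leading value of the 9. Shmt1 and Mthfd1 had an r of 0.21 with each other, against 0.888 to 0.968 among the 4 mitochondrial genes. That r, like those of the neighbours above, includes STHdhQ7. STHdhQ7 was highest of the 16 conditions in Mthfd1 (10.01, followed by DKI at 9.33) and ranked 14 in Shmt1 (8.86). Among the STHdhQ111 conditions, DKI, meclizine, cyproheptadine and loxapine were the highest in both genes. An r without STHdhQ7 was not computed. Among the members themselves, the highest values were 0.991 between Psph and Mthfd2 and 0.980 between Phgdh and Shmt2.

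On GRCm38 the genes are on 7 chromosomes. Shmt2 (ENSMUSG00000025403) lies at chr10:127517123-127522444 on the minus strand, Aldh1l2 (ENSMUSG00000020256) at chr10:83487450-83534140 on the minus strand and Mthfd1l (ENSMUSG00000040675) at chr10:3973118-4167081 on the plus strand. Mthfd2 (ENSMUSG00000005667) is at chr6:83305691-83325908, Phgdh (ENSMUSG00000053398) at chr3:98313170-98339990, Psat1 (ENSMUSG00000024640) at chr19:15904678-15947337, Psph (ENSMUSG00000029446) at chr5:129765558-129787449 and Shmt1 (ENSMUSG00000020534) at chr11:60788104-60811718, all on the minus strand. Mthfd1 (ENSMUSG00000021048) is at chr12:76255298-76319803 on the plus strand. Other annotated genes overlap some of them, such as Ndufa4l2 with Shmt2, Cct6a with Psph and Smcr8 with Shmt1 on the opposite strand. The library kit kept the strand, but whether counting used it is not given in the sources used here, so reads of these overlapping genes may not be separated.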

How the data were processed

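Poly(A) RNA of 48 samples was sequenced as single-end reads. Per the processing notes and the study's methods, reads were trimmed with Trimmomatic 0.36 and quantified with RSEM against the GRCm38.p5 transcriptome. DESeq2 is also named there and was not used here. The deposited values are log2 normalized abundances per gene, ranging from -2.34 to 18.62. The authors' transformation is not given in the sources used here. It compresses low genes like a regularized log, so fold changes may be understated. Depth per sample was therefore unknown. The summed linear abundance differed by at most 1.11 times between samples.

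The 13409 of 27281 genes that had a symbol and averaged 1 or more on the log2 scale were fitted with limma 3.58.1 (R 4.3.3, eBayes with trend) with condition and collection day over all 48 samples, which left 30 residual degrees of freedom. p-values were two-sided and Benjamini-Hochberg adjusted within a comparison. A gene was called at an adjusted p under 0.05. The fit was tested on simulated data. The members and lists were chosen with earlier results of these data known. Beyond the 9 members, the text names the 2 genes of each list with the largest called difference for diacylglycerol kinase inhibitor II, Atf4, Ddit3 and the 3 genes nearest in pattern to each member. One gene that this rule names among the other folate genes is not reported here. Remaining names (markers, overlapping genes, promoter matches) were given for context after values were seen. Alternatives were other filters, covariates, variance settings, reference samples and left-out libraries. The exclusions of haloperidol replicate 2, of selisistat replicate 2 and of pizotifen from Group A were chosen after seeing the data. Replicate numbers were tested for pairing and did not pair samples. Promoters were read from RefSeq with Python 3.11.15.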

Additional observations from a re-analysis of the deposited data

How the results depend on the processing

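No called difference of the 9 genes changed sign under any alternative. The 9 calls with DKI and with meclizine remained in number under every alternative. Meclizine against cyproheptadine had 1 call, which became 0 with no filter on low values, with collection time added and with only the compared samples in the fit, and 2 with a minimum mean of 5 or with no collection day term. With only the compared samples, the 2 calls of 4-deoxypyridoxine and the 3 of DKI against meclizine became 0. This fit has fewer samples. Group A against Group B had 7 calls in place of 9 with pizotifen left out. Against the references of the same collection days and times, sodium butyrate had 5 calls in place of 3 and trichostatin A had 2 in place of 1, also 2 without haloperidol replicate 2. Meclizine against cyproheptadine also had 2 without selisistat replicate 2. The cause was not tested.

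When 1 library was left out, calls ranged from 0 to 2 for 4-deoxypyridoxine and for meclizine against cyproheptadine, 1 to 3 for sodium butyrate and for trichostatin A, 3 to 6 for DKI against cyproheptadine and 0 to 6 for DKI against meclizine. They ranged from 8 to 9 for cyproheptadine and for STHdhQ7, 7 to 9 for loxapine and for Group A against Group B, and 6 to 7 for pizotifen.

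Of 97 called gene differences, 3 were lost with collection time added, 3 with no filter, 1 with robust variances and 9 with only the compared samples. Replicate numbers did not pair the samples (mean correlation of deviations -0.0487 for the same number and 0.0245 for other numbers, over 0.1 in 9 of 120 pairs of conditions), and the fit with the replicate block kept 97 of the 97 calls.

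The mitochondrial minus cytosolic score depended on the genes in it. Shmt2 minus Shmt1 alone gave 1.06 in STHdhQ7, 1.04 with DKI, 0.903 with meclizine, 0.764 with cyproheptadine, 0.539 with pizotifen, 0.0664 with sodium butyrate and 0.0198 with haloperidol. Without Aldh1l2 the score was 0.342 in STHdhQ7, 0.952 with DKI, 0.877 with meclizine, 0.790 with cyproheptadine, 0.563 with pizotifen and 0.0260 with sodium butyrate. The median of the mitochondrial genes gave 0.982 with meclizine and 0.173 with sodium butyrate. With 1 library left out, it ranged from -0.0447 to 0.0115 with haloperidol, -0.100 to -0.0431 with nortriptyline and 0.109 to 0.165 with sodium butyrate. Depth was unknown, and 3 samples per condition limit the precision.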
